A study of Mus musculus with 6 samples.

Results

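The 36 genes described here encode aminoacyl-tRNA synthetases, 20 that work in the cytosol and 16 that work in mitochondria. They were taken by gene symbol from a list of synthetases, and all 36 were found among the 49585 genes of the deposited tables. All 36 also passed the filter on low counts, which left 14020 genes. RNA came from mGB2, a mouse glioblastoma cell line labelled as glioblastoma stem cells. There were 3 libraries from cells labelled Bcat1-KO and 3 from control cells (NT in the design text), both groups untreated and grown as attached cultures on coated plates, in DMEM:F12 with N2, B27, EGF and FGF, until confluent. The labels do not say how the knockout was made, whether it is 1 clone, or whether it and the control differ in Bcat1 alone, so the loss of Bcat1 and any other difference between the lines cannot be told apart. They do not say either whether replicates are separate cultures, and each p-value reflects only how these libraries vary, which may be technical.

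Each synthetase joins 1 amino acid to its tRNAs, and the charged tRNA then brings that amino acid to the ribosome. Most amino acids have a separate nuclear gene for the mitochondrial enzyme, named with a final 2, while Gars and Kars each encode both forms and are counted here as cytosolic. Several cytosolic enzymes sit with scaffold proteins in the multi-synthetase complex, and many cytosolic synthetase genes are known targets of ATF4, the transcription factor of the amino acid response. Bcat1 encodes the cytosolic enzyme that takes the amino group off the 3 branched-chain amino acids, leucine, isoleucine and valine, and the enzymes that charge tRNA with these 3 amino acids use the same substrates.

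The libraries held 29543157 to 37800648 counts, of which 1.03% to 1.14% came from the 36 genes and 1.31% to 2.28% from mitochondrially encoded genes. Bcat1 itself was at 155, 176 and 173 CPM (read counts normalised to library size, scaled by TMM) in the knockout libraries and 214, 223 and 232 CPM in the control, so the targeted gene was lower but still transcribed. The stem cell markers Sox2 and Olig2 were at 131 CPM or more in each library, whereas Prom1 was at 0 in the 3 control libraries and under 1 CPM in the knockout. The summed level of 4 immune markers was 2.58 to 3.74 CPM in the knockout and 2.51 to 4.26 CPM in the control, and that of 4 endothelial markers was under 1 CPM in each library. That of 4 fibroblast markers was 4.13 to 5.82 CPM in the knockout and 17.1 to 18.8 CPM in the control, nearly all from Col1a1, with Col1a2, Dcn and Lum under 0.5 CPM in each library. That of 4 neuron markers was 21.1 to 30.4 CPM in the knockout and 45.4 to 47.0 CPM in the control. Of these, Rbfox3 was under 0.12 CPM in the knockout and 32.3 to 33.6 CPM in the control, whereas Syt1 and Gad1 were higher in the knockout. The summed level of the 8 stem cell markers was 2263 to 2485 CPM in the knockout and 1549 to 1629 CPM in the control, with 6 of 8 higher. The part of these marker differences in the results below was not tested.

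Synthetase transcripts changed little and in both directions. In the knockout, 8 of the 36 genes were higher and 10 lower (edgeR's quasi-likelihood test, threshold 0.05 on p-values adjusted by Benjamini-Hochberg over all 14020 genes). Over all tested genes 32% were higher and 30.3% lower, or 62.3% in either direction, against 18 of 36 members. The median log2 fold change was -0.01 for the members and 0.01 for all genes, and the median size of the change, without its sign, was 0.21 against 0.38. The members ranged from -0.56 (Fars2) to 0.63 (Nars2), so none reached 2-fold, a size that 19.3% of all genes reached or passed. Of the 9520 tested genes within the members' range of mean log2 CPM, 957 reached or passed it. The median size of the change over those 9520 genes was 0.30. In edgeR's test against a 1.5-fold threshold 0 members passed, also 0 at an unadjusted p under 0.05, whereas that test called 11.2% of all genes higher and 10.6% lower. With DESeq2, tested against no change, 8 members were higher and 11 lower, where 4182 of all 14020 genes were higher and 4193 lower.

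The knockout and control libraries did not overlap for 18 members, 7 above and 11 below the controls, where 67.7% of all genes did not overlap, 35.1% above and 32.5% below. Eprs was below every control library but did not pass the test, and Mars2 passed it although its libraries overlapped. The 8 higher members became 5 without Bcat1-KO replicate 2, without control replicate 1 or without control replicate 2, and 4 without control replicate 3. Over all genes 4480 higher genes became 4120, 3923, 3871 and 3901 in these fits, in that order. The genes on the edge of the threshold in these fits were Cars, Hars2, Mars2 and Sars2. Without Bcat1-KO replicate 1 the higher members numbered 11, where 32.3% of all genes were higher.

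**Figure D1:**
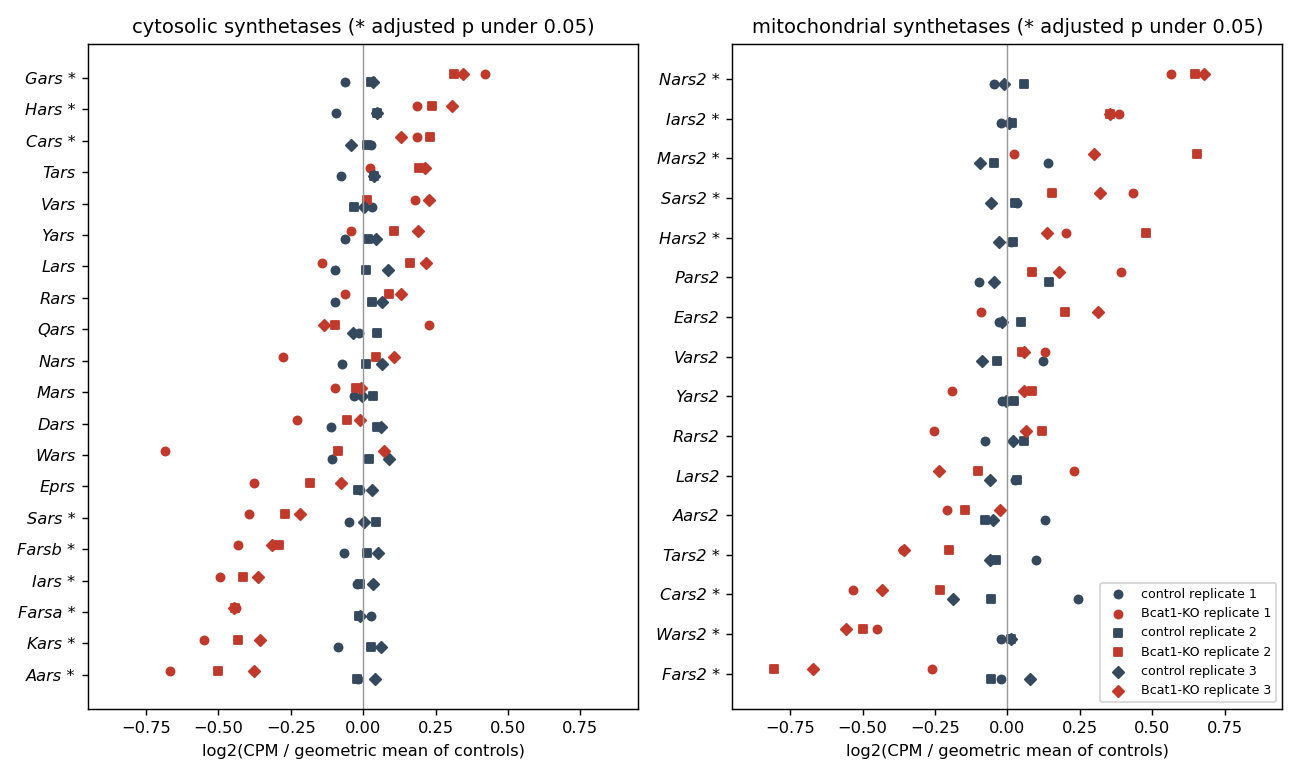
Level of each synthetase gene in each library, as log2 of its CPM over the geometric mean of the 3 control libraries. Red points are knockout and dark points control libraries, the marker shape gives the replicate, and a star marks an adjusted p under 0.05. Knockout points of Aars, Kars, Iars and Farsa lie left of all control points, those of Nars2, Iars2 and Gars right of them, and Bcat1-KO replicate 1 (circles) is the lowest knockout library for 15 of the 20 cytosolic genes, as control replicate 1 is the lowest control library for 14.

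Levels per kilobase of exonic sequence separated the compartments more than the genotypes. Cytosolic genes ranged from 16.5 (Qars) to 269 CPM per kb (Nars, the asparagine enzyme) in the control, with a median of 95.9. Mitochondrial genes ranged from 2.56 (Pars2, the proline enzyme) to 101 CPM per kb (Lars2), with a median of 7.20. Lars2 stood apart from its compartment, since the next highest mitochondrial gene, Iars2, was at 20.4 CPM per kb. No transcript of another gene in GENCODE M21 matched a Lars2 transcript over at least 100 bases at 95% identity or more. Shorter or more diverged stretches, and sequence outside these transcripts, were not searched. The origin of the Lars2 reads was therefore not tested. In the knockout the medians were 78.3 and 7.42 CPM per kb. Matches of at least 100 bases at 95% identity or more existed for 8 members. The longest were 1656 bases of a processed pseudogene of Iars (Gm4849) and 1326 bases that Aars shares with Exosc6, which overlaps it. Reads of these stretches are of uncertain origin. The deposited exonic length of a gene covers all its annotated exons, so genes with long rarely used exons appear lower on this scale.

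**Figure D2:**
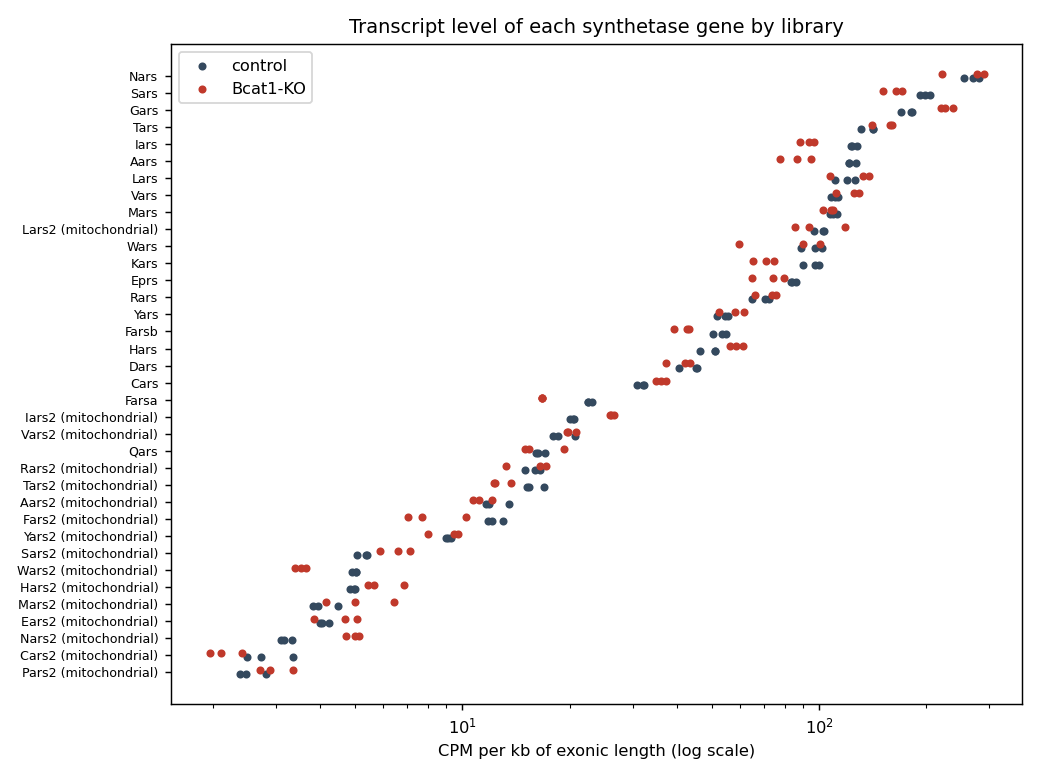
CPM per kb of exonic length for each synthetase gene on a log axis, with 1 point per library, red for knockout and dark for control. Genes are ordered by their control mean, from 2.56 (Pars2) to 269 (Nars), and most mitochondrial genes lie below 21 while Lars2 lies among the cytosolic ones.

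Of the 20 cytosolic genes 6 were lower (30%) and 3 higher (15%), and their median change was -0.04 on the log2 scale. For the 16 mitochondrial enzymes the counts were 5 higher (31.2%) and 4 lower (25%), and the median was 0.03. Over all tested genes 30.3% were lower and 32% higher, so the lower cytosolic and the higher mitochondrial shares were near the background. Without Bcat1-KO replicate 1 the higher cytosolic genes numbered 5. The higher mitochondrial genes numbered 3 without Bcat1-KO replicate 2, control replicate 1 or control replicate 2, and 2 without control replicate 3. The difference between the compartments was not tested. The summed level of all 36 genes was 10194, 10706 and 11062 CPM in the knockout and 11180, 11484 and 11583 CPM in the control. All knockout libraries were thus below the controls. The summed level of the cytosolic genes was 8138, 8876 and 9348 CPM in the knockout and 9302, 9626 and 9808 CPM in the control, so the groups overlapped at their edges. That of the 16 mitochondrial genes was 2056, 1830.2 and 1713 CPM in knockout and 1878, 1859 and 1775 CPM in control libraries, which also overlapped. Without Lars2, the other 15 summed to 748, 791 and 765 CPM in knockout libraries, against 742, 717 and 704 CPM for controls. All knockout libraries were above the controls by a narrow margin. The mean of this sum rose from 721 (control) to 768 CPM (knockout). That of Iars2, which the sum includes, rose by more, from 181 to 233 CPM. The order of the libraries therefore does not show a rise of the mitochondrial set apart from Iars2. Without Gars and Kars the cytosolic count was 5 lower and 2 higher of 18, with the same median of -0.04.

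Of the 6 enzymes for leucine, isoleucine and valine, 1 was higher and 1 lower (16.7% each), and both charge isoleucine. Over all tested genes 32% were higher and 30.3% lower. Iars, the cytosolic isoleucine enzyme (ENSMUSG00000037851.13, chromosome 13 from 49682100 to 49734267, mm10), was at 467, 493 and 512 CPM in the knockout and 648, 652 and 673 CPM in the control. All knockout libraries were below all controls, and the log2 fold change was -0.42 ± 0.07 SE (edgeR adjusted p = 0.000243). Iars2, its mitochondrial counterpart (ENSMUSG00000026618.11, chromosome 1 from 185284726 to 185329396), was at 236, 231 and 231 CPM in the knockout and 178, 183 and 181 CPM in the control. Here the order was the opposite and the spread within each group small, with a log2 fold change of 0.37 ± 0.06 SE (edgeR adjusted p = 0.000237). Iars2 overlaps Rab3gap2 on the opposite strand, and 4.90% of the reads in Iars2 had the orientation opposite to the one tested.

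The leucine enzymes did not pass the test, and their libraries overlapped. Lars, the cytosolic leucine enzyme, which also senses leucine for mTORC1, was at 414, 511 and 531 CPM in the knockout and 427, 460.4 and 485 CPM in the control. Lars2 was at 1308, 1039 and 948 CPM in the knockout and 1136, 1142 and 1072 CPM in the control. Bcat1-KO replicate 1 was the lowest library for Lars and the highest for Lars2. Their log2 fold changes were 0.09 and -0.02 (SE 0.10 and 0.11, adjusted p = 0.461 and 0.863, edgeR). Without that library both passed, Lars at 0.17 (adjusted p = 0.0378) and Lars2 at -0.19 (adjusted p = 0.0282), in a fit that called 32.3% of all genes higher and 33.3% lower. Vars, the cytosolic valine enzyme, was at 701, 625 and 725 CPM in the knockout and 632, 606 and 619.6 CPM in the control, and Vars2 at 114, 108 and 108 against 113, 101 and 97.8 CPM. Both overlapped between groups, with log2 fold changes of 0.14 and 0.08 (SE 0.08 and 0.07, adjusted p = 0.126 and 0.362, edgeR). Vars passed with limma-trend on log2(TPM + 1), which made 2 of the 6 genes higher. The other 30 members, for other amino acids, had 7 higher (23.3%) and 9 lower (30%) genes and a median of -0.02, against 0.08 for these 6.

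For amino acids with an enzyme in each compartment, the transcripts of the 2 enzymes moved together in some pairs and not in others. How often pairs of other genes do so was not computed. There were 17 pairs over 16 amino acids, counting both subunits of the cytosolic phenylalanine enzyme and using Eprs for both glutamate and proline. The mitochondrial gene had the higher log2 fold change in 8 pairs. Both genes fell in the 2 phenylalanine pairs, both rose for histidine, and they went in opposite directions for isoleucine, serine and cysteine. In 6 pairs neither gene passed. The largest gap was that of isoleucine, where the change of Iars2 exceeded that of Iars by 0.79, followed by asparagine (0.66) and serine (0.60), and in the other direction by cysteine, at -0.59. The ratio of cytosolic to mitochondrial transcript was below every control library in all 3 knockout libraries for isoleucine, asparagine, serine, alanine, glutamate and proline. It was above every control library for cysteine and threonine. The glutamate and proline ratios share Eprs. Over all tested genes 67.7% of single genes did not overlap between the groups, and no such share was computed for ratios of other gene pairs.

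**Figure D3:**
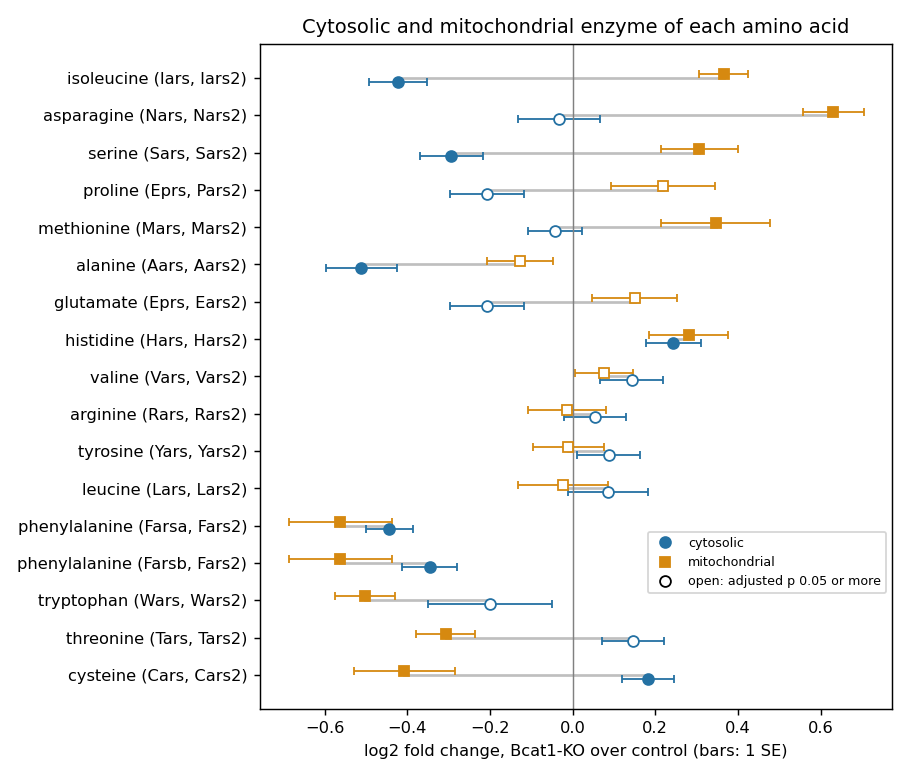
Log2 fold change of the cytosolic (blue circle) and the mitochondrial (orange square) enzyme for each amino acid, knockout over control, with bars of 1 SE and open symbols where the adjusted p was 0.05 or more. The isoleucine pair at the top is separated by 0.79 and the cysteine pair at the bottom by -0.59, while both phenylalanine pairs lie left of 0.

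Among the genes that fell, Aars showed the greatest change of the cytosolic enzymes. Aars charges alanine (ENSMUSG00000031960.14, chromosome 8 from 111033144 to 111057664) and was at 720.1, 807 and 880.0 CPM in the knockout and 1128, 1126 and 1176 CPM in the control. The 3 knockout libraries were all lower, and the log2 fold change was -0.51 ± 0.09 SE (edgeR adjusted p = 0.000278). Kars, the lysine enzyme, also on chromosome 8, was at 292, 317 and 334 CPM against 402, 436 and 446 CPM, without overlap. Its log2 fold change was -0.45 ± 0.08 SE (edgeR adjusted p = 0.000309). The phenylalanine enzyme is made of the products of Farsa and Farsb. Farsa was at 76.1, 76.0 and 75.7 CPM against 105, 102 and 102 CPM, and Farsb at 103, 113 and 111 CPM against 132, 140.0 and 143 CPM. Both subunit genes were below the controls in every knockout library, by log2 fold changes of -0.44 and -0.35 (adjusted p = 3.77e-05 and 0.00072, edgeR). Sars, the serine enzyme, fell from 1020.2 ± 33.2 to 832 ± 52.2 CPM (mean ± SD, n = 3 each).

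Of the mitochondrial genes, Fars2, the phenylalanine enzyme, was at 21.7, 14.9 and 16.4 CPM in the knockout and 25.7, 25.1 and 27.5 CPM in the control. Its knockout libraries differed among themselves, with replicate 1 nearest to the controls, and the log2 fold change was -0.56 ± 0.12 SE (edgeR adjusted p = 0.00205). Wars2, the tryptophan enzyme, was at 21.7, 20.97 and 20.2 CPM against 29.2, 29.9 and 29.9 CPM, a clear gap, with a log2 fold change of -0.50 ± 0.07 SE (edgeR adjusted p = 9.54e-05). Its cytosolic counterpart Wars was at 206, 311 and 347 CPM against 306, 335 and 351 CPM. Bcat1-KO replicate 1 stood far below the other libraries, and Wars did not pass (-0.20 ± 0.15 SE on the log2 scale, edgeR adjusted p = 0.265). Without Bcat1-KO replicate 3 Wars did pass (-0.37, adjusted p = 0.0418), as it did with no filter on low counts, and without replicate 1 its log2 fold change was -0.03. Tars2 and Cars2, for threonine and cysteine, were also lower, by -0.31 and -0.41 (adjusted p = 0.00265 and 0.0124, edgeR), although Cars2 did not pass without control replicate 1 or on log2(TPM + 1).

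Among the genes that rose, Nars2, the mitochondrial asparagine enzyme (ENSMUSG00000018995.12, chromosome 7 from 96951505 to 97064758), changed most. It was at 32.9, 34.9 and 35.6 CPM in the knockout and 21.6, 23.2 and 22.1 CPM in the control. The groups were well apart, and the log2 fold change was 0.63 ± 0.07 SE (edgeR adjusted p = 1.58e-05), which is the largest among the members. Cytosolic Nars was at 583, 731 and 762 CPM in the knockout and 672, 712 and 740 CPM in the control. Its knockout libraries spanned the control range on both sides, and it did not pass (-0.03 ± 0.10 SE on the log2 scale, edgeR adjusted p = 0.781). Gars, the glycine enzyme of both compartments, was at 739.8, 687 and 702 CPM in the knockout and 529.7, 564 and 567 CPM in the control. All knockout libraries were above all controls, with a log2 fold change of 0.36 ± 0.07 SE (edgeR adjusted p = 0.000922). Sars2, the mitochondrial serine enzyme, was at 23.6, 19.4 and 21.8 CPM against 17.9, 17.8 and 16.8 CPM, and did not overlap, with a log2 fold change of 0.31 ± 0.09 SE (edgeR adjusted p = 0.0132). It did not pass without control replicate 3.

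Mars2, the mitochondrial methionine enzyme, was at 46.7, 72.5 and 56.6 CPM in the knockout and 50.7, 44.6 and 43.1 CPM in the control. Knockout replicate 1 lay inside the control range, and the call (0.35 ± 0.13 SE on the log2 scale, edgeR adjusted p = 0.0383) was lost without Bcat1-KO replicate 2 or 3 and without any 1 control library. It was also lost with a replicate block (adjusted p = 0.0645), limma-voom and log2(TPM + 1). Without Bcat1-KO replicate 2 its log2 fold change was 0.15. Hars and Hars2, the histidine enzymes, lie head to head on chromosome 18 and overlap on opposite strands. Hars was at 112, 116 and 122 CPM against 92.2, 102 and 102 CPM, and Hars2 at 24.2, 29.3 and 23.2 CPM against 21.2, 21.3 and 20.7 CPM. Each was above the controls in all knockout libraries, by log2 fold changes of 0.24 and 0.28 (adjusted p = 0.00745 and 0.0244, edgeR). Over all libraries 33.6% of the reads in Hars2 had the orientation opposite to the one tested, where 0.176% did in Hars, and Hars2 did not pass without Bcat1-KO replicate 2, where its log2 fold change was 0.16, or without any 1 control library. Cars, the cytosolic cysteine enzyme, rose by a log2 fold change of 0.18 ± 0.06 SE (edgeR adjusted p = 0.0248), and did not pass without Bcat1-KO replicate 2, without any 1 control library or with no filter on low counts.

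Of the 8 enzymes of the multi-synthetase complex, Iars and Kars were lower and the other 6, Eprs, Lars, Mars, Qars, Rars and Dars, did not pass. That is 25% lower and 0% higher, where 30.3% of all tested genes were lower and 32% higher. Eprs, which charges both glutamate and proline, was at 1177, 1345 and 1447 CPM in the knockout and 1515, 1507 and 1560.3 CPM in the control. It lay below the controls in all 3 libraries at a log2 fold change of -0.21 ± 0.09 SE (edgeR adjusted p = 0.0599), and passed with DESeq2 (adjusted p = 0.0147) and with the RLE and upper-quartile scalings (adjusted p = 0.0458 and 0.0396). Of the 3 scaffold genes of the complex, Aimp1 fell from 161 ± 10.9 to 119.6 ± 9.20 CPM (-0.43 ± 0.08 SE on the log2 scale, edgeR adjusted p = 0.000486). Aimp2 and Eef1e1 had log2 fold changes of -0.05 and -0.08 and did not pass. The 12 cytosolic enzymes outside the complex had 3 higher (25%) and 4 lower (33.3%) genes. By the structural class of the catalytic domain, 12 of 17 class II genes changed, 5 higher and 7 lower, and 6 of 18 class I genes did, 3 in each direction, with Eprs, which has a domain of each class, left out. These are 70.6% and 33.3%, where 62.3% of all tested genes changed. The difference between the classes was not tested.

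Several synthetase genes lay among genes that changed in the same direction. Aars, Kars, Farsa and Cars2, all lower, are the 4 members on chromosome 8, which was singled out after its values were seen. Over the 779 tested genes of chromosome 8 the median log2 fold change was -0.37, with 61.1% lower and 10.3% higher, whereas outside chromosome 8 the median was 0.03. Other chromosomes were shifted too, with medians of -0.33 on chromosome 14 (55.8% lower), -0.27 on chromosome 10 (53.0% lower), 0.22 on chromosome 9 and 0.23 on chromosome 18. A local median was taken over a window of 51 tested genes, the member itself included. It was -0.41 at Aars, -0.39 at Kars, -0.53 at Farsa, -0.21 at Cars2 and -0.34 at Iars on chromosome 13. With the local median removed as an offset, these 5 genes had log2 fold changes of -0.10, -0.06, 0.09, -0.20 and -0.08 (adjusted p = 0.353, 0.555, 0.203, 0.193 and 0.353, edgeR), and Sars and Tars2 also no longer passed. In that fit 9 members were higher and 4 lower, where 28% of all genes were higher and 27.6% lower. The 4 lower were Fars2, Wars2, Farsb and Eprs, at -0.48, -0.33, -0.31 and -0.26.

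Other members differed from their surroundings. Nars2, Iars2, Gars and Sars2 had local medians between -0.06 and 0.07 and stayed higher after removal, at 0.61, 0.32, 0.29 and 0.36. Hars and Hars2 had local medians of -0.34, whereas the median over chromosome 18 was 0.23, and were at 0.59 and 0.62 after removal of the local median. Mars, the cytosolic methionine enzyme, was at 351, 369 and 374 CPM in the knockout and 368, 384 and 374 CPM in the control, nearly level. Its local median on chromosome 10 was -0.52. The log2 fold change of Mars went from -0.04 to 0.48 (adjusted p = 6.78e-05, edgeR) after removal. Vars and Vars2 passed after removal, at 0.26 and 0.22 (adjusted p = 0.0132 and 0.0179), so 3 of the 6 leucine, isoleucine and valine genes were then higher. Cars and Mars2 no longer passed, at 0.07 and 0.28 (adjusted p = 0.380 and 0.0880). Over the 36 genes, which share libraries and in part neighbours, the log2 fold change and the local median had a Pearson r of 0.45 and a Spearman rho of 0.46. Each local median included the gene's own value. The 32 members outside chromosome 8 had 8 higher (25%) and 6 lower (18.8%) genes, where 33.2% and 28.5% of all tested genes outside chromosome 8 were. The part of the neighbouring genes in these results was not tested.

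**Figure D4:**
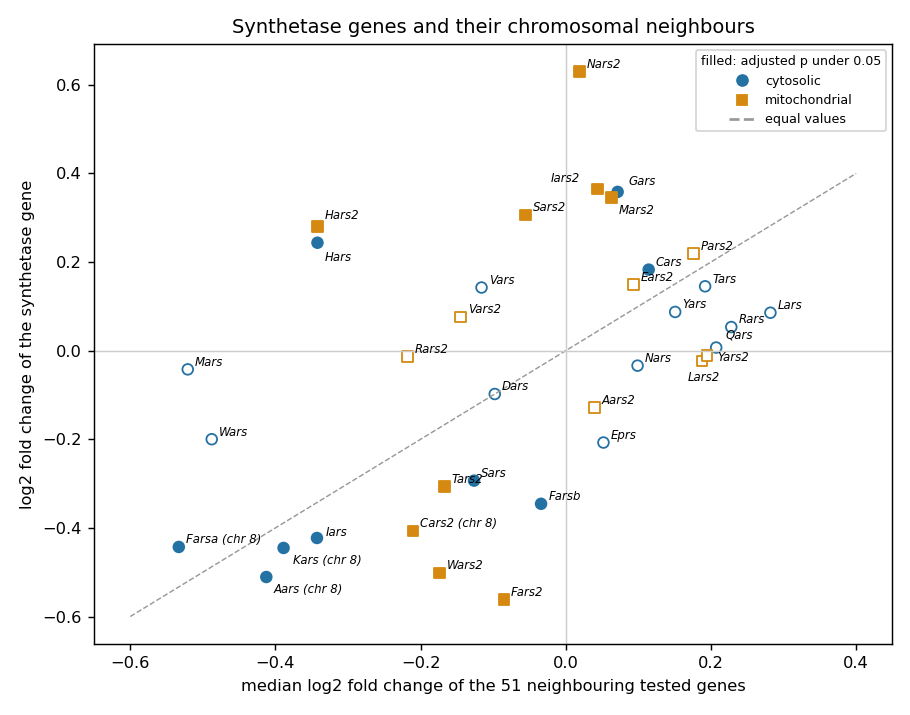
Log2 fold change of each synthetase gene against the median log2 fold change of a window of 51 tested genes that includes it. The dashed line marks equal values, and filled symbols an adjusted p under 0.05. Aars, Kars and Farsa of chromosome 8 lie near the line at the lower left, Nars2 far above it at a local median of 0.02, and Mars, Wars, Hars and Hars2 above it on the left.

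The promoters of 27 members were listed by RefSeq (GRCm38.p6, the assembly of mm10) and were searched for TGATGNAA, the core of the composite C/EBP-ATF site through which ATF4 acts, on both strands from 250 bases before to 50 after the annotated start. It was present in 5 of 13 cytosolic promoters and in 0 of 14 mitochondrial ones, and in 3.97% of 32851 mouse promoters of the same length. The promoters of Cars, Hars, Hars2, Lars, Nars, Pars2, Rars, Vars and Wars were not searched. The 5 sequences are shown because these genes share the element and yet differed in direction, Aars and Iars being lower, Gars higher and Tars and Yars not past the threshold. Each runs 5′ to 3′ on the gene's strand, from 120 bases before the RefSeq start to 20 after it, with the match in capitals (TTGCATCA and TTTCATCA are matches on the other strand).
Aars (chr8:111033722-111033861, plus strand): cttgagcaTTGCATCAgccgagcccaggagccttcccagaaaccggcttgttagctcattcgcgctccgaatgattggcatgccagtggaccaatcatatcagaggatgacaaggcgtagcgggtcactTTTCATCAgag
Gars (chr6:55037881-55038020, plus strand): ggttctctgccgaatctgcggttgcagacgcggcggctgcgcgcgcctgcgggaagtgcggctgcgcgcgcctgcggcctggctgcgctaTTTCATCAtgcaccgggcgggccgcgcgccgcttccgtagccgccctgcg
Iars (chr13:49682010-49682149, plus strand): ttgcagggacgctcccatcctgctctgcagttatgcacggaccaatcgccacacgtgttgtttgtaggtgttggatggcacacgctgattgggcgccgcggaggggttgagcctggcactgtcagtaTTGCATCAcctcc
Tars (chr15:11399639-11399778, minus strand): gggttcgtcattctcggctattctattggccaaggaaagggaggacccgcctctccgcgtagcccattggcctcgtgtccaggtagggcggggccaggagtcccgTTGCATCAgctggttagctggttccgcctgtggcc
Yars (chr4:129189783-129189922, plus strand): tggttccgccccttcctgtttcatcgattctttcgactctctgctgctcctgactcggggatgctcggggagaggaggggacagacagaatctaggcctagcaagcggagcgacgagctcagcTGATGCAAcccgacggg
The match began 112 bases before the start and again at base 10 after it in Aars, 30 bases before it in Gars, 15 before it in Tars, and at base 8 in Iars and base 4 in Yars. The RefSeq start lies 698 bases inside the deposited gene in Aars and 143 in Yars, and within 30 bases of its end in the other 3. Of 2 further motifs, the E-box CACGTG was in 7.15% of all promoters and in those of Aars, Ears2, Farsb, Iars and Tars. The cAMP response element TGACGTCA was in 1.79% of all promoters and in none of the 27. A match is a stretch of letters and was not tested for binding.

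The genes of the amino acid response, which uncharged tRNA sets off through the kinase GCN2 (Eif2ak4), had shares of higher and lower genes near the background. Of 16 listed, 5 were higher and 4 lower, where 32% and 30.3% of all tested genes were, and their median change was 0.02 on the log2 scale. Atf4 was at 538, 575 and 591 CPM in the knockout and 584, 634 and 639 CPM in the control, overlapping, and did not pass (-0.12 ± 0.07 SE on the log2 scale, edgeR adjusted p = 0.16). Asns, which makes asparagine and is a classic target of this pathway, had a log2 fold change of 0.04. Ddit3, which encodes CHOP, fell from 201 ± 3.40 to 116 ± 15.1 CPM, and Cebpb from 44.1 ± 1.31 to 26.1 ± 4.84 CPM. Trib3 fell from 447 ± 15.8 to 321 ± 53.4 CPM. The cystine transporter gene Slc7a11 rose from 83.2 ± 3.84 to 140.2 ± 16.7 CPM. Ddit3 overlaps Mars on the opposite strand, and 2.62% of the reads in Mars had the orientation opposite to the one tested.

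Further factors of tRNA charging and delivery also changed in both directions. They were counted in 8 lists, which also held the amino acid response and the genes that supply branched-chain amino acids. Of 49 tested genes in these lists 14 were higher and 12 lower, near the 32% and 30.3% of all tested genes. The largest log2 fold change in them was -1.35 (Slc43a1, a supply gene), beyond the 0.63 of Nars2. Tufm, the mitochondrial factor that brings charged tRNA to the ribosome, was at 124, 118 and 124 CPM in the knockout and 74.6, 80.3 and 85.3 CPM in the control. The groups were far apart, and the log2 fold change of 0.61 ± 0.07 SE (edgeR adjusted p = 1e-05) was close in size to that of Nars2. Of the cytosolic delivery factors, Eef1b2 fell from 877 ± 58.8 to 702 ± 39.0 CPM and Eef1a1 had a log2 fold change of 0.02. Mitochondria make glutaminyl-tRNA by amidation of glutamyl-tRNA, and of the genes of that step Qrsl1 fell (-0.50, adjusted p = 0.000624), Gatb rose (0.32, adjusted p = 0.00824) and Gatc had a log2 fold change of -0.05 (edgeR). Mtfmt, which formylates the initiator methionyl-tRNA, rose by 0.31 (adjusted p = 0.0346, edgeR), but did not pass without any 1 of 5 libraries, Bcat1-KO replicate 3 being the exception.

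Among the proofreading genes, Dtd1 and Dtd2, which encode D-aminoacyl-tRNA deacylases, rose by 0.44 and 0.48 on the log2 scale (adjusted p = 0.000283 and 0.00167, edgeR). With the local median removed they were at 0.14 and 0.18 and did not pass. For selenocysteine, which is made on a serine-charged tRNA, the kinase gene Pstk rose by 0.58 and Secisbp2, which reads the selenocysteine signal of the mRNA, fell by 0.67 (adjusted p = 0.00276 and 9.87e-05, edgeR). Of 6 genes of tRNA end processing, Rpp30 of RNase P rose by 0.42 (adjusted p = 0.000783, edgeR). So did 1110008L16Rik, which encodes the nuclease of mitochondrial RNase P, by 0.23 (adjusted p = 0.0417, edgeR), but not without any 1 of 5 libraries, Bcat1-KO replicate 3 being the exception, nor with DESeq2, other scalings or no filter. Of the genes that supply branched-chain amino acids, Bcat2 fell to 53.0 ± 2.65 from 127 ± 7.11 CPM and the transporter gene Slc43a1 to 6.02 ± 0.810 from 15.4 ± 0.809 CPM. Slc43a2 rose to 2.95 ± 0.192 from 1.45 ± 0.396 CPM. Slc7a5, the main leucine importer, averaged 1098 CPM in knockout and 1029 CPM in control libraries and did not pass (0.09 ± 0.08 SE on the log2 scale).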

How the data were processed

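RNA was extracted on columns with DNase treatment and made into stranded mRNA libraries, per the labels' protocols. The submitters' processing notes name STAR 2.5.3a, featureCounts and the mm10 build. The annotation release was not given in the sources used here. The deposited counts are raw reads per gene, and those of the reverse strand (96.4% to 96.5% of stranded reads) were tested. The authors' deposited TPM, scaled within each library, served for 1 alternative. No row lacked a gene name.

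Genes dropped by edgeR's expression filter held 0.0511% of all reads. TMM scaling was applied to the counts, which were tested with edgeR 4.0.16 (quasi-likelihood, Benjamini-Hochberg, 0.05), knockout against control without covariate. Standard errors are the log2 fold change over the square root of F. Alternatives used DESeq2 1.42.0, limma 3.58.1, other scalings, no filter, unstranded counts, a 1.5-fold threshold, a replicate block, the local median of 51 genes as an offset, and each replicate left out. The test was checked on simulated counts, with 50 genes changed at each fold among 13806. It recovered 24% at 1.25-fold, 62% at 1.5-fold, 94% at 2-fold and 92% at 4-fold. The simulation called 143 genes, far fewer than the data, so these shares do not carry over directly. A gene that did not pass was not shown to be unchanged. R 4.3.3 and Python 3.11.15 were used.

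Members, groupings, gene lists and motifs were chosen with earlier results of these data known. Given in full were the 6 branched-chain enzymes, the 6 higher and 6 lower members with the largest change, the most abundant member per kb of each compartment, and up to 4 changed genes of each list, of which 1 is not reported here. Farsb, Sars, Tars2, Cars2, Hars, Cars, Wars, Eprs, Mars, Atf4, Asns and genes named as not passing were added after their values were seen.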

Additional observations from a re-analysis of the deposited data

How the results depend on the processing

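Against a 1.5-fold threshold the counts of higher and lower genes went from 4480 and 4255 to 1564 and 1481 over all genes. Over the genes of the 8 lists they went from 14 and 12 to 2 and 3. They went to 0 and 0 for the members, the cytosolic, the mitochondrial and the leucine, isoleucine and valine genes alike. With the local median of 51 genes removed 4 members were lower, 2 of them cytosolic and 2 mitochondrial, and 3 leucine, isoleucine and valine genes were higher and 0 lower. On log2(TPM + 1) 2 of these 6 were higher. Leaving out 1 replicate at a time gave 4 to 11 higher and 9 to 12 lower members. For the cytosolic genes the range was 2 to 5 higher and 6 to 8 lower, for the mitochondrial 2 to 6 higher and 3 to 5 lower, and for the leucine, isoleucine and valine genes 1 to 2 in each direction. Over all genes it was 3871 to 4589 higher and 3846 to 4741 lower, and for the genes of the 8 lists 10 to 17 and 12 to 14.

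With the local median removed, signs turned for Farsa (0.090), Lars (-0.20), Mars (0.48), Qars (-0.20), Rars (-0.17), Rars2 (0.20), Tars (-0.047), Wars (0.29), Yars (-0.063) and Mtfmt (-0.071). On log2(TPM + 1) they turned for Lars2 (0.017), Mars (0.011), Nars (0.011), Rars2 (0.031) and Yars2 (0.036). Qars, at 0.0070, turned under RLE (-0.0071), upper-quartile scaling (-0.0034), no filter (-0.0027), DESeq2 (-0.0070), limma-voom (-0.0018) and a replicate block (-0.0015). Leaving out 1 replicate at a time gave both signs for Lars2 (-0.19 to 0.060), Nars (-0.12 to 0.056), Qars (-0.14 to 0.062), Rars (-0.0051 to 0.090), Rars2 (-0.095 to 0.073) and Yars2 (-0.071 to 0.052). The cause was not tested. Except for Farsa and Mtfmt these genes had not passed the test. Without Bcat1-KO replicate 1, Tars (0.18, adjusted p = 0.0174), Ears2 (0.24, adjusted p = 0.0105) and Qars (-0.14, adjusted p = 0.0487) passed.

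Over all tested genes the deviations of same-numbered libraries from their group means had correlations of -0.05, -0.07 and 0.16. With 3 libraries per group these values cannot show whether the replicate numbers pair them. Among the 20 cytosolic genes replicate 1 was the lowest of its group for 15 in the knockout and 14 in the control. With a replicate block 4448 genes were higher and 4214 lower, and 7 and 10 members.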
